A study of Mus musculus with 28 samples.

Results

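Microglia are the resident macrophages of the brain, and the 10 genes described here, *P2ry12*, *Tmem119*, *Cx3cr1*, *Trem2*, *Csf1r*, *Itgam*, *C1qa*, *C1qb*, *Aif1* and *Spi1*, are widely used as their markers. They were taken by name, as genes of another lineage than the neurons from which the nuclei were sorted. All 10 were found among the 21938 protein-coding genes of the annotation, and each was read in the 4 deposited lists for H3K4me3 peaks and H3K27me3 islands at its promoter and over its gene body. The series has 28 samples, of which the 4 lists pool 8, with 2 replicates for each cell type and mark.

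The nuclei were isolated by INTACT, an affinity purification of nuclei that carry a GFP-tagged SUN1 protein in the nuclear membrane, from the striatum of single adult C57BL/6J mice of both sexes. A2a nuclei came from Sun1-sfGFP;A2a-cre mice and D1 nuclei from Sun1-sfGFP;Drd1-cre mice. All mice therefore carried the Sun1-sfGFP knock-in allele, and the groups differed in the Cre driver, which switches the tag on in medium spiny neurons (MSNs) of the indirect pathway (A2a) or of the direct pathway (D1). Histone marks were profiled by CnR (CUT&RUN), in which an antibody directs a nuclease to cut out the chromatin that carries the mark, with antibodies from Abcam for H3K4me3 and from Active Motif for H3K27me3. The labels of the D1 H3K27me3 libraries disagree, with D1 in the title and the cell type and A2a in the source name. These libraries were treated as D1, and each of their values given here depends on that reading. In the list read as D1, the promoter islands of *Adora2a*, *Drd2* and *Penk*, genes of A2a neurons, had 4153, 559 and 1365 raw reads. The A2a list had 160 and 200 reads at *Drd2* and *Penk* and no island at *Adora2a*. At *Drd1*, *Pdyn* and *Tac1*, genes of D1 neurons, the list read as D1 had 86, 50 and 121 reads. The A2a list had 1958, 4641 and 9144. The paper reports these directions for D1 and A2a nuclei. Every list pools its replicates, so the values have no replicate error, nothing was tested across mice, and differences between A2a and D1 are given as differences between 2 lists.

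H3K4me3 is found at the promoters of active or poised genes, and H3K27me3 is laid down by Polycomb complexes over genes that are held silent. Microglia descend from yolk sac progenitors and depend on the transcription factor PU.1 (encoded by *Spi1*) and on signalling through the CSF1 receptor, whereas MSNs arise from the neural tube, and the genes listed above are not known as genes of MSNs. In striatal tissue, microglia take up neuronal signals such as fractalkine and nucleotides through CX3CR1 and P2RY12, and tag and engulf synapses with the help of complement and TREM2.

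The promoter was taken as the window from 2 kb upstream to 1 kb downstream of the annotated 5′ end of the gene (TSS, GENCODE vM21 on GRCm38), and a peak or island was counted when it overlapped the window by at least 1 bp. In the A2a list, 4 of the 10 genes (*P2ry12*, *Tmem119*, *Trem2* and *C1qb*) had an H3K4me3 peak in this window. The share of all protein-coding genes with such a peak was 58.2%. In the D1 list none of the 10 genes had a promoter peak, against 55.7% of protein-coding genes. All 4 peaks were thus peaks of the A2a list alone, a class that held 2.59% of protein-coding genes (569 genes), whereas 0.164% (36 genes) had a promoter peak in the D1 list alone. An H3K27me3 island lay in the promoter window of 6 genes in A2a (*Tmem119*, *Cx3cr1*, *Itgam*, *C1qa*, *C1qb* and *Spi1*), where the share of protein-coding genes was 21.7%, and of 2 genes in D1 (*Tmem119* and *Spi1*), where it was 15.3%. The 4 genes with an island in A2a alone compare with 7.38% of protein-coding genes in that class. Of the 10 genes, 2 carried both marks at the promoter in A2a (*Tmem119* and *C1qb*), 2 carried H3K4me3 alone (*P2ry12* and *Trem2*), 4 carried H3K27me3 alone and 2 carried neither (*Csf1r* and *Aif1*). In D1, 8 carried neither mark and 2 carried H3K27me3 alone. Both marks together were found at 9.54% of protein-coding promoters in A2a and 5.57% in D1. The states of the 10 genes follow the GENCODE start. With windows at RefSeq starts, chosen after seeing the data, *Cx3cr1* and *Csf1r* carried both marks in A2a and *Aif1* alone carried neither. In D1, *Csf1r* then also carried H3K27me3.

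**Figure D1:**
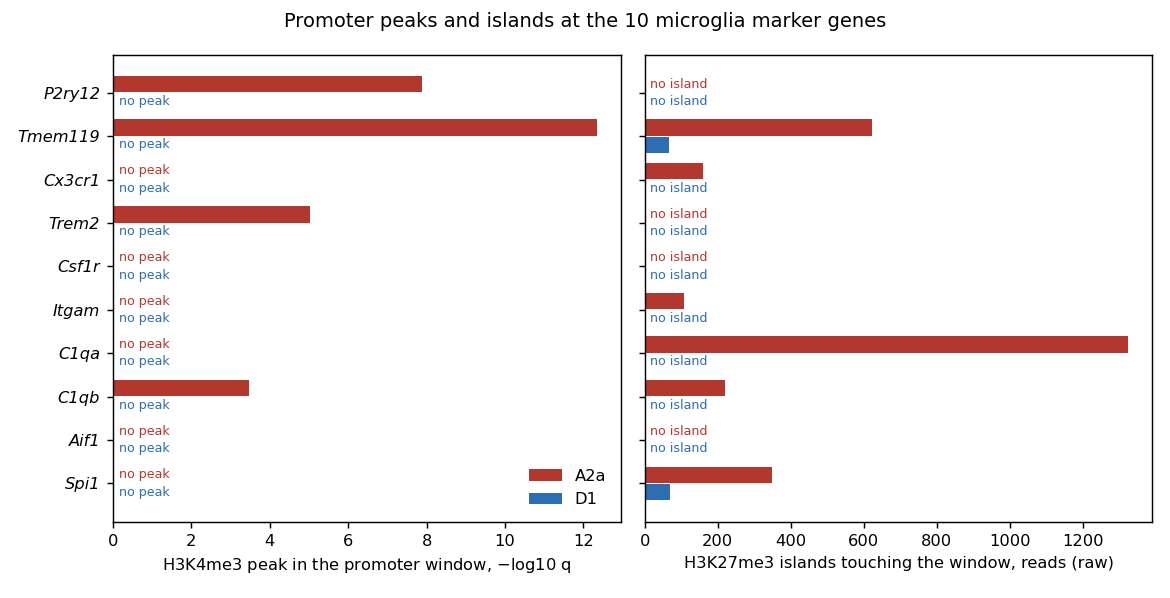
Promoter values of the 10 genes in the A2a (red) and D1 (blue) lists. Left, −log10 q of the H3K4me3 peak in the promoter window; right, raw reads summed over the H3K27me3 islands that touch the window, not scaled between the lists. The 4 H3K4me3 peaks lie between 3.47 and 12.3 and all belong to A2a, and the 2 genes with a D1 island (67 and 70 reads) also have an A2a island.

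The sequence around the start of these genes is poor in CpG dinucleotides. H3K4me3 in mammals is concentrated at CpG-rich promoters, so the members were also read against genes of like CpG content. Within 500 bp of the TSS, the ratio of observed to expected CpG was 0.215 at the median of the 10 genes, from 0.158 at *Aif1* to 0.342 at *P2ry12*, against a median of 0.552 over protein-coding genes. All 10 fell into the class below 0.35, which holds 36.8% of protein-coding genes. Within this low class, 9.09% of the 8065 genes had a promoter H3K4me3 peak in A2a and 7.20% in D1, and 2.11% had a peak in A2a alone. The 4 of 10 in A2a were above the share of this class, and the 0 of 10 in D1 was near it. Promoter islands of H3K27me3 occurred at 22.2% of the low class in A2a and 13.3% in D1, and 10.6% had an island in A2a alone, so that the 6 of 10 in A2a again lay above the class share and the 2 of 10 in D1 near it.

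**Figure D2:**
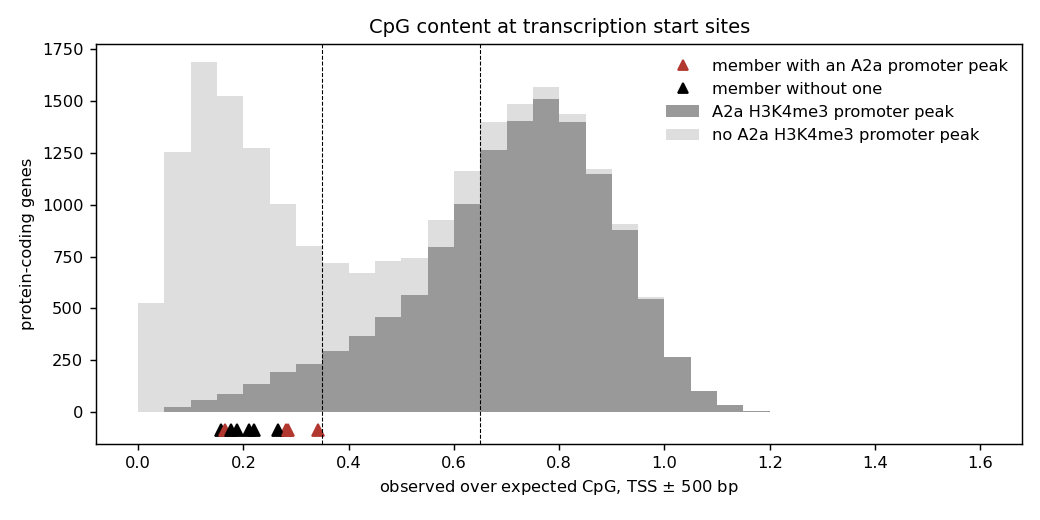
Observed over expected CpG within 500 bp of the TSS (x axis) for all protein-coding genes, as counts of genes with (dark) and without (light) an A2a H3K4me3 promoter peak, stacked. Triangles mark the 10 genes, in red those with an A2a promoter peak, and dashed lines mark the class limits at 0.35 and 0.65. All 10 triangles lie left of the lower limit.

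Promoter sequences are shown for the 3 genes with an A2a promoter peak that are in the RefSeq promoter table, for *Cx3cr1*, whose RefSeq start lies inside an A2a peak, and for *Aif1*, which has no mark. Each runs from 250 bases before to 50 bases after the RefSeq start, 5′ to 3′ on the strand of the gene, with CpG dinucleotides in capitals (RefSeq, GRCm38.p6). Of the 10 genes, 6 had an entry, the 5 shown and *Itgam* (chr7:128062390-128062689, plus strand). The intervals are chr3:59262936-59263235 (minus strand) for *P2ry12*, chr17:48346151-48346450 (plus) for *Trem2*, chr4:136886151-136886450 (minus) for *C1qb*, chr9:120068247-120068546 (minus) for *Cx3cr1* and chr17:35176003-35176302 (minus) for *Aif1*.
P2ry12: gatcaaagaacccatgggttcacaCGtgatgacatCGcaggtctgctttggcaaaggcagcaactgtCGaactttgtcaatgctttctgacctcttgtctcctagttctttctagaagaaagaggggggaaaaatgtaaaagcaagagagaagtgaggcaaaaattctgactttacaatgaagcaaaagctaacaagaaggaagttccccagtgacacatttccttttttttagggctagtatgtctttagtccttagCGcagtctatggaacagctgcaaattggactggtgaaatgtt
Trem2: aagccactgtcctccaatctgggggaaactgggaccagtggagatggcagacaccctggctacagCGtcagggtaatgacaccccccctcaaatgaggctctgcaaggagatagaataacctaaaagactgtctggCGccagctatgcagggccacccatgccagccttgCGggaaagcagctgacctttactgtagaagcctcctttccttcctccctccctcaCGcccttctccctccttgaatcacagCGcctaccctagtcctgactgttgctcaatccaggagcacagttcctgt
C1qb: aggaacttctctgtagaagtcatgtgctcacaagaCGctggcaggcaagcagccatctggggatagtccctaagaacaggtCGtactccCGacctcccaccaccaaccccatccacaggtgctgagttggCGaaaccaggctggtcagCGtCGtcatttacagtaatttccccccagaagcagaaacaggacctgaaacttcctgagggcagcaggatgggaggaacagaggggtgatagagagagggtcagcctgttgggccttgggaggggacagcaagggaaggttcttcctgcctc
Cx3cr1: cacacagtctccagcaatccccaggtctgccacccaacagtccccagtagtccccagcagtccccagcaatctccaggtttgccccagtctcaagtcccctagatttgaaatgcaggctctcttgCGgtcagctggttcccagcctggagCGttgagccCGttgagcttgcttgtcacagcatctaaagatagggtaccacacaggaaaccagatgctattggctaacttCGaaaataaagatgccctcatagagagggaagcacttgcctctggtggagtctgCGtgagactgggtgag
Aif1: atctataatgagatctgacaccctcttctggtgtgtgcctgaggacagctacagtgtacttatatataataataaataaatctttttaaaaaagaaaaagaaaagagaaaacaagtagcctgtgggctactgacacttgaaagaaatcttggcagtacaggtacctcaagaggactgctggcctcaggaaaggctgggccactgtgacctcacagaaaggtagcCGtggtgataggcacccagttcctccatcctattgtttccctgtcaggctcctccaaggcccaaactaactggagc

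These sequences held 4, 5, 6, 5 and 1 CpG in the order shown, and *Itgam* held 6. The median over all 27025 promoters of the table was 7, so each of the 6 entries lay below it. The purine-rich core GAGGAA, read on both strands (TTCCTC on the other) and typical of sites bound by PU.1, was present in 4 of the 6 (*Aif1*, *Itgam*, *C1qb* and *Trem2*) and in 28.3% of all promoters in the table. The longer form GAGGAAGT (ACTTCCTC on the other strand), which contains the core, was in none of the 6 and in 3.28% of all promoters. These matches describe letters in a window of 300 bases and say nothing of binding.

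*P2ry12*, *Tmem119*, *Cx3cr1*, *Trem2*, *Csf1r* and *Itgam* encode proteins of the microglial surface. *P2ry12* encodes the purinergic receptor with which microglia sense ADP, and it lies on chromosome 3 from 59216272 to 59262871 (minus strand), within *Med12l*. Its A2a promoter peak ran from 59262283 to 59262849, over 567 bp, with a fold enrichment of 4.49 over the local background and a −log10 q of 7.87. It ranked at percentile 13.2 of the A2a peaks by −log10 q, and its summit lay in an intron 402 bp downstream of the TSS. The D1 list held no peak near this start, the nearest being 42.2 kb from the A2a peak. That D1 peak, from 59219624 to 59220079 (fold enrichment 4.14, −log10 q 6.13), lay near the 3′ end of the gene, where short transcripts of *P2ry12* begin. The A2a list held weak peaks at the same place, with −log10 q of 6.99 and 3.86, the closer of which was 134 bp from the D1 peak without overlapping it. A peak in *P2ry12* also lies in *Med12l*, and the lists do not assign it to either gene. No H3K27me3 island touched *P2ry12*, and the nearest were 62.5 kb away in A2a and 65.9 kb in D1.

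*Tmem119*, a transmembrane protein used to tell microglia from infiltrating macrophages, had the strongest H3K4me3 promoter peak of the group and was marked by H3K27me3 in both lists. The gene lies on chromosome 5 from 113793729 to 113800516 (minus strand). The A2a peak from 113799411 to 113799821 (411 bp) had a fold enrichment of 5.52 and a −log10 q of 12.3 and ranked at percentile 23.1, with its summit in an intron 978 bp downstream of the TSS. A weaker A2a peak with a −log10 q of 2.37 lay farther into the gene. The nearest D1 peak was 26.4 kb away. The A2a H3K27me3 island covered the whole gene, from 113792601 to 113801000, and thus also both peaks. It was 8.40 kb long with 623 reads (95% exact Poisson interval 575 to 674). The D1 island, from 113799001 to 113800800, lay within it and covered the TSS over 1.80 kb with 67 reads (51.9 to 85.1).

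The A2a island list held 2.80 times as many reads as the D1 list, with a mean of 73.4 reads per kb of island in A2a and 42.8 in D1, so raw reads are not comparable between them. Per 1000000 island reads, the *Tmem119* island stood at 28.2 in A2a and 8.50 in D1, a ratio of 3.32. In density it was close to its own list in A2a, at 74.2 reads per kb, and lower in D1, at 37.2 reads per kb. Most of the difference in reads between the lists thus came with a difference in the length called.

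*Cx3cr1* encodes the fractalkine receptor, and its TSS differs between annotations. GENCODE places it at 120069879 on chromosome 9 (minus strand, gene from 119901616), with a transcript that runs on over *Csrnp1*, *Ttc21a* and *Gorasp1*, whereas RefSeq places it 1583 bp downstream, at 120068296. No peak of either list lay in the GENCODE window. An A2a peak of 302 bp from 120068136 to 120068437 covered the RefSeq start, with its summit 53 bp downstream of it in the UTR, a fold enrichment of 3.29, a −log10 q of 4.51 and percentile 3.61. The nearest D1 peak was 41.9 kb away. An A2a H3K27me3 island from 120067801 to 120069800, with 160 reads over 2.0 kb (136 to 187), began 79 bp downstream of the GENCODE start and covered the RefSeq start. A further 3 A2a islands with 110 to 155 reads lay in the gene, and the nearest D1 island was 79.9 kb from the TSS. Besides 2 further weak A2a peaks, H3K4me3 within the GENCODE gene was found at the promoters of *Gorasp1* and *Ttc21a* (−log10 q of 139 in A2a and 86.7 in D1) and of *Csrnp1* (89.0 and 59.1). A further peak in the gene, at no other protein-coding promoter, had a −log10 q of 56.2 in A2a and 27.6 in D1.

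*Trem2*, the lipid-sensing receptor that signals through TYROBP, lies on chromosome 17 from 48346401 to 48354147 (plus strand). The A2a peak from 48347166 to 48348006 (841 bp) had a fold enrichment of 3.71, a −log10 q of 5.03 and percentile 4.81, with its summit in an exon 932 bp downstream of the TSS. The nearest D1 peak was 60.6 kb away. H3K27me3 was not called at *Trem2*, and the nearest islands were 45.2 kb away in A2a and 10.6 kb in D1. It was thus, with *P2ry12*, a gene with H3K4me3 and no H3K27me3 in A2a.

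*Csf1r*, the receptor for CSF1 and IL-34 on which microglial survival depends, showed the same shift between annotations as *Cx3cr1*. It lies on chromosome 18 from 61100598 to 61132149 (plus strand) in GENCODE, and the RefSeq start at 61105572 is 4974 bp farther downstream. The GENCODE window held neither mark. An A2a H3K4me3 peak of 482 bp (61106418 to 61106899) lay 1063 bp downstream of the RefSeq start by its summit, in an intron, with the same fold enrichment (3.71) and −log10 q (5.03) as the peak of *Trem2*. No D1 peak lay within 69.2 kb of it. An H3K27me3 island covered the RefSeq start in both lists. It spanned 1.80 kb with 114 reads (94.0 to 137) in A2a and 2.80 kb with 86 reads (68.8 to 106) in D1. Over the whole gene, island reads came to 302 in A2a and 86 in D1, and per 1000000 island reads to 13.7 and 10.9.

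*Itgam* encodes CD11b, the alpha chain of complement receptor 3. It lies on chromosome 7 from 128062640 to 128118491 (plus strand) and had no H3K4me3 peak in either list, with the nearest peaks 68.9 kb (A2a) and 93.98 kb (D1) from the TSS. The A2a list held a short island just downstream of the TSS (128062801 to 128064400), 1.60 kb long with 108 reads (88.6 to 130), at percentile 6.91 of the list by reads. This island also lay in the promoter window of *Gm49368*. The nearest D1 island was 131.6 kb away.

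**Figure D3:**
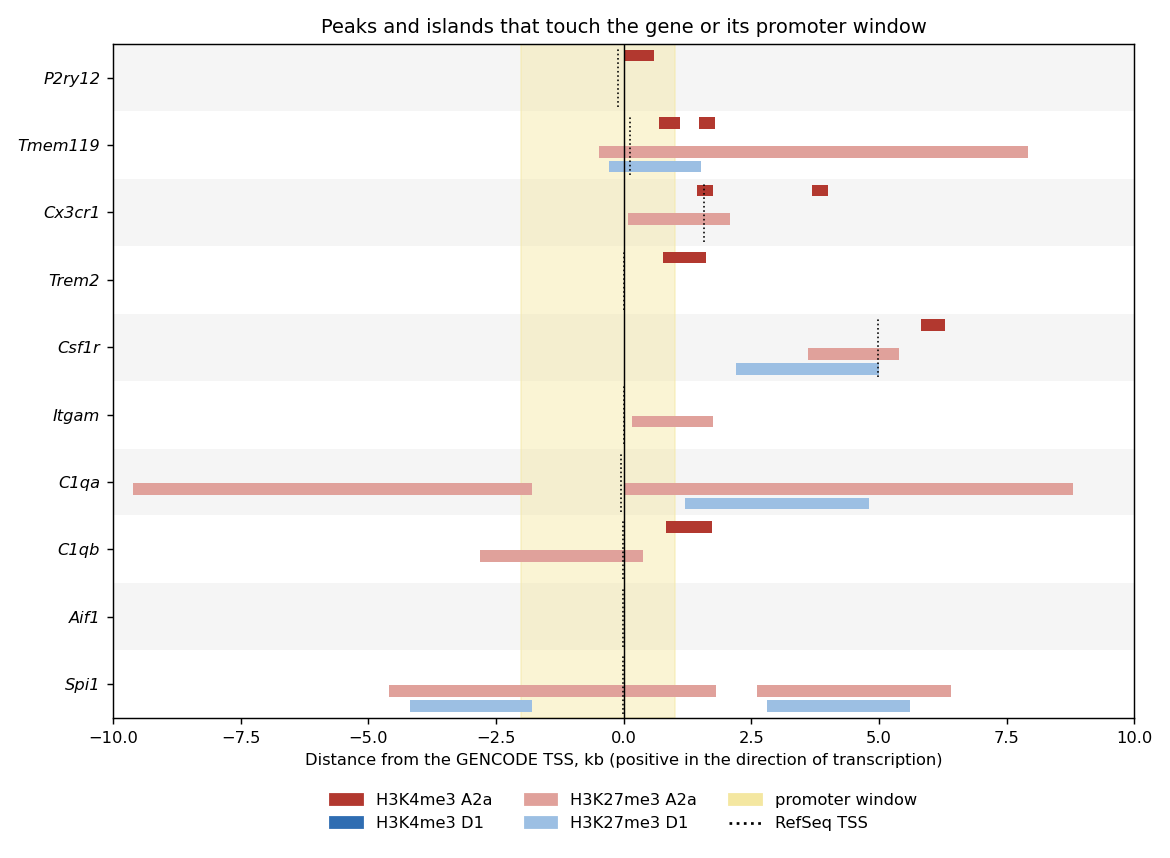
Peaks and islands that touch each gene or its promoter window, by distance from the GENCODE TSS in kb, positive in the direction of transcription. Dark red bars are A2a H3K4me3 peaks, light red A2a H3K27me3 islands and light blue D1 H3K27me3 islands, and the shaded band is the promoter window. No D1 H3K4me3 peak appears within 10 kb of any of the 10 starts, and the A2a peaks lie on or downstream of the GENCODE start.

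*C1qa* and *C1qb* encode chains of C1q, which starts the classical complement pathway, and they lie side by side with *C1qc* on chromosome 4, all on the minus strand. *C1qb* (136880129 to 136886187) had the weakest of the 4 promoter peaks, from 136884464 to 136885352 (889 bp), with a fold enrichment of 3.19, a −log10 q of 3.47 and percentile 0.900. It overlapped the window by 166 bp, and its summit lay in an intron 1687 bp downstream of the TSS. *C1qa* (136895917 to 136898803) had no peak, and the A2a peak nearest to it, 7.53 kb from its TSS, lay in *C1qc* with a −log10 q of 4.61. The nearest D1 peaks to the starts of *C1qb* and *C1qa* were 49.5 and 56.6 kb away. H3K27me3 spread over the locus in A2a. An island from 136890001 to 136898800, 8.80 kb long, ran over nearly all of *C1qa* and the promoter of *C1qc* with 707 reads (656 to 761) at percentile 91.0. A neighbouring island of 7.80 kb with 618 reads lay upstream of *C1qa*, and an island of 3.20 kb with 220 reads (192 to 251) covered the *C1qb* start. In D1 an island overlapped the A2a island of 7.80 kb, outside the promoter window of *C1qa*. Another D1 island, of 3.60 kb with 174 reads (149 to 202), ran from 136894001 to 136897600, inside the large A2a island. It lay in *C1qa* and 1.20 kb from its TSS, and so was not counted at the promoter. Its density was 48.3 reads per kb, which is 1.13 times the mean of the D1 list, and that of the A2a island that contains it was 80.3 reads per kb, or 1.09 times the mean of the A2a list. Thus *C1qa* was marked in both lists, and the count of genes with an A2a island alone includes it through the edge of the window.

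*Aif1*, which encodes the cytoskeletal protein IBA1 and is the usual stain for microglia, carried neither mark in either list. It lies on chromosome 17 from 35170991 to 35176068 (minus strand). The nearest H3K4me3 peaks lay 10.4 kb (A2a) and 10.5 kb (D1) from its TSS and belonged to the neighbouring gene *Prrc2a*, with −log10 q of 151 and 90.5. The nearest H3K27me3 islands were 97.5 kb away in A2a and 107.3 kb in D1.

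*Spi1* encodes PU.1, the factor that directs the myeloid lineage, and had H3K27me3 islands over parts of the gene in both lists. It lies on chromosome 2 from 91082390 to 91115756 (plus strand). The A2a island at the promoter, from 91077801 to 91084200, spanned the whole window with 348 reads over 6.40 kb (312 to 387). The D1 island of 2.40 kb, from 91078201 to 91080600, had 70 reads (54.6 to 88.4) and reached 211 bp into the upstream end of the window, ending short of the TSS. Inside the gene both lists held an island at the same place, from 91085001 in A2a (241 reads) and from 91085201 in D1 (137 reads), and A2a held another with 257 reads. Summed over gene and promoter, *Spi1* had 846 reads in A2a and 207 in D1, a ratio of 1.46 per 1000000 island reads. No H3K4me3 peak lay at *Spi1*. The nearest, 11.3 kb (A2a) and 11.4 kb (D1) from the TSS, were at *Slc39a13*.

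Over gene bodies, 6 of the 10 genes held an H3K4me3 peak in A2a (63.3% of protein-coding genes) and 2 in D1 (60.6%). The 2 in D1 were *Cx3cr1*, by peaks at the promoters of genes that it overlaps and in a long intron, and *P2ry12*, by the peak near its 3′ end. H3K27me3 islands touched the bodies of 7 genes in A2a (27.7% of protein-coding genes) and 4 in D1 (21.0%). The 4 in D1 were *Tmem119*, *Csf1r*, *C1qa* and *Spi1*, and each of these had an island in A2a that overlapped the D1 island. *Cx3cr1*, *Itgam* and *C1qb* had an island in A2a only.

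The A2a H3K4me3 promoter peaks of these genes were weak for their list. The strongest promoter peak of a protein-coding gene had a median −log10 q of 127 in A2a, and 4.44% of these peaks were at or below the 12.3 of *Tmem119*. The median fold enrichment of all A2a peaks was 6.65 and the median length 1214 bp, and each of the 4 promoter peaks was below both. Weak A2a peaks often had no D1 counterpart. Between −log10 q of 3.47 and 12.3, the list held 5010 A2a peaks, and 37.3% of them had an overlapping peak in D1, whereas over the whole list the share was 82.3%. In the same range the D1 list held 4518 peaks, and 83.0% of them had an overlapping peak in A2a. For promoters alone, 557 protein-coding genes had their strongest A2a promoter peak in this range, and 28.7% of these peaks overlapped a D1 peak. In D1 there were 661 such genes, and 96.1% of their peaks overlapped an A2a peak. The A2a list is the longer, with 22551 peaks against 20080. Cut to the same number of strongest peaks (−log10 q of at least 7.13), it kept a promoter peak at 2 of the 10 genes, *P2ry12* and *Tmem119*. The paper reports greater signal in peaks in A2a than in D1 for both marks, scaled to mapped reads. It hypothesizes technical sources, such as cell number, antibody efficiency, amplification or batch, and normalized the signal for this. The list values read here are not normalized between A2a and D1, and the effect on A2a-only peaks was not tested. The summits of the 4 peaks, 402 to 1687 bp downstream of the TSS, were all farther into the gene than the median summit of A2a promoter peaks, at 239 bp.

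**Figure D4:**
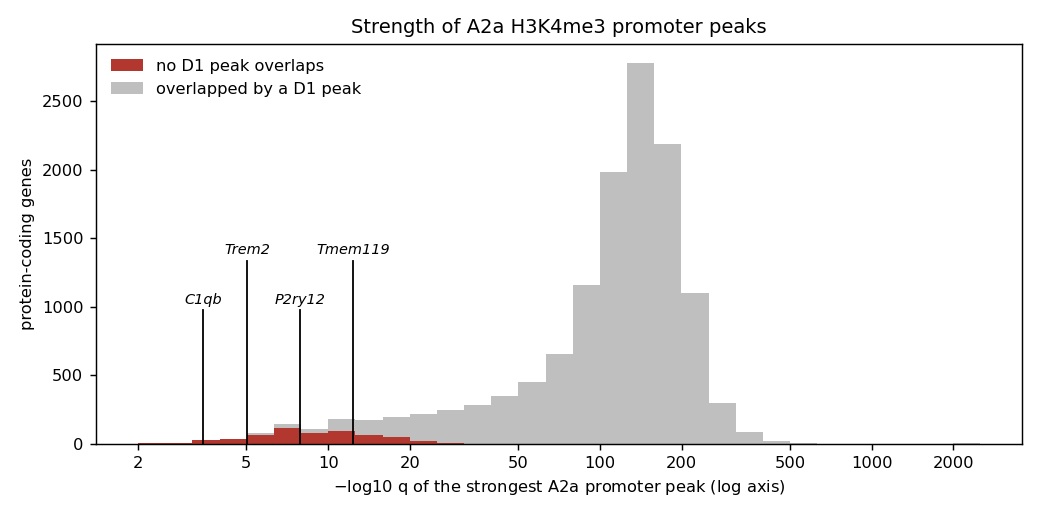
Histogram of the strongest A2a H3K4me3 promoter peak of each protein-coding gene by −log10 q (log axis), stacked by whether a D1 peak overlaps it (grey) or not (red). Vertical lines mark the 4 genes described here, between 3.47 and 12.3 and thus in the low tail of a distribution with a median of 127.

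In nuclei pooled from a sort, a mark in a few nuclei of another cell type and a low level of the mark in all nuclei cannot be told apart. Markers of the sorted neurons were read in the same way. All 10 markers of striatal projection neurons had a promoter H3K4me3 peak in both lists, and so did 9 of 10 pan-neuronal markers. The exception, *Rbfox3*, had a peak at another of its annotated starts, with a −log10 q of 114 in A2a and 80.5 in D1. Among the neuronal markers with a promoter peak, *Nefl* was the strongest in both lists (193 and 172). *Adora2a* (182 in A2a) and *Ppp1r1b* (89.0 in D1) were the strongest of the striatal list. Both lists thus carried H3K4me3 at the striatal markers, including those of the other neuron type. In D1, *Adora2a* (55.5) was stronger than *Drd1* (35.7), *Pdyn* (39.0) and *Tac1* (45.1), while *Penk* (35.1) and *Drd2* (30.6) were weaker. Of all protein-coding genes, 58.2% had a promoter peak in A2a and 55.7% in D1. In A2a, the promoter peaks of the microglia genes were weaker than those of the neuronal markers. The exceptions among the neuronal markers were *Drd1* (5.002) and *Pdyn* (10.2), which are genes of D1 neurons.

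The ligands through which neurons address microglial receptors were mostly marked alike in A2a and D1. Of 7 ligand genes, 6 had a promoter H3K4me3 peak in both lists. Such a peak was found at 58.2% of all protein-coding genes in A2a and 55.7% in D1. *Cd47*, the ligand of SIRPA that restrains engulfment, had one at another annotated start (−log10 q of 166 in A2a and 92.2 in D1). *Cd200*, whose product binds CD200R, had the strongest promoter peak (242 and 154), followed in A2a and D1 by *Tgfb2* (146 and 86.6). *Cx3cl1*, which encodes fractalkine, the ligand of CX3CR1, had a −log10 q of 75.5 in A2a and 78.5 in D1, with fold enrichments of 3.29 and 3.90. Of the ligands of CSF1R, *Il34* had the weaker peaks (12.7 and 12.5) and no island. *Csf1* had stronger peaks (44.5 and 32.4) together with islands of 607 reads in A2a and 335 in D1. *Tgfb1*, a growth factor that maintains microglial identity, stood at 30.9 in A2a and 5.70 in D1, with islands of 230 and 77 reads. The ligands of receptor genes described above (*Cx3cl1* for *Cx3cr1*, and *Il34* and *Csf1* for *Csf1r*) were thus marked by H3K4me3 in both lists. *Cx3cr1* and *Csf1r* themselves had no D1 peak at their start. The lists also differed in CpG content, with a median ratio of 0.529 for the ligands and 0.215 for the 10 marker genes. Its part in this contrast was not tested.

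A further 30 genes of the microglial surface and effector functions also had more promoter H3K4me3 peaks in A2a than in D1. In A2a 16 of them (53.3%) had a promoter peak, near the 58.2% of all protein-coding genes. In D1 6 of them (20%) had one, against 55.7%. A peak in A2a alone was found at 2.59% of protein-coding genes. Of the 30, 21 were in the low CpG class, where 9.09% had a peak in A2a and 7.20% in D1. The 10 with a peak in A2a alone were *Tlr4* (−log10 q of 11.0), *Fcer1g* (9.77), *Slc2a5* (9.41), *Tyrobp* and *Cd53* (8.63 each), *Csf3r* (7.87), *Olfml3* (7.48), *Siglech* (7.13), *Ctss* (6.41) and *Ly86* (3.13). *Tyrobp* and *Fcer1g* encode the adaptors that carry the signals of TREM2 and of Fc receptors, and *Ctss* a lysosomal protease. All 10 values lay below 12.3, the −log10 q of *Tmem119*, and none of the 30 genes had a peak in D1 alone. At another annotated start, *Olfml3* had a peak in both lists, stronger in D1 (18.7) than in A2a (9.36), and *Fcgr3* had a peak in A2a alone (10.2). For H3K27me3 the lists differed less, with islands at 12 promoters in A2a and 10 in D1. The shares of protein-coding genes with an island were 21.7% and 15.3%. *P2ry6* (321 reads), *Cd53* (141) and *Siglech* (133) had an island in A2a alone, and *Csf3r* (93 reads) in D1 alone. The most reads were at *Cd14* in A2a (1322) and at *Tlr2* in D1 (556), which encode pattern recognition receptors.

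Of 12 transcription factor genes of microglia and the myeloid lineage, 11 had a promoter H3K4me3 peak in A2a and 8 in D1, and 10 and 8 had an island. Their median CpG ratio was 0.685, and thus far above that of the 10 marker genes. Of all protein-coding genes, 58.2% had a promoter peak in A2a and 55.7% in D1, and 21.7% and 15.3% had an island. *Sall1* (16.6), *Fli1* (6.46) and *Runx1* (3.74) had a peak in the promoter window in A2a alone, although *Fli1* had peaks in both lists at another annotated start (11.8 in A2a and 4.74 in D1). *Irf8* (401 reads) and *Batf3* (339) had an island in A2a alone. *Cebpa* had the strongest peaks (133 and 101). *Sall1*, a regulator of microglial identity, had 5867 island reads in A2a and 1488 in D1. *Spi1* itself stood at 348 and 70 reads at its promoter, with no peak. Among 8 genes that rise in activated microglia, 3 had a promoter peak in A2a and 2 in D1, and 5 and 4 had an island. *Lpl*, which neurons also express, had the strongest peaks (155 and 94.6) and an island in A2a alone (157 reads), *Axl* had a peak in A2a alone (8.63), and *Gpnmb* had the most island reads (560 and 264).

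**Figure D5:**
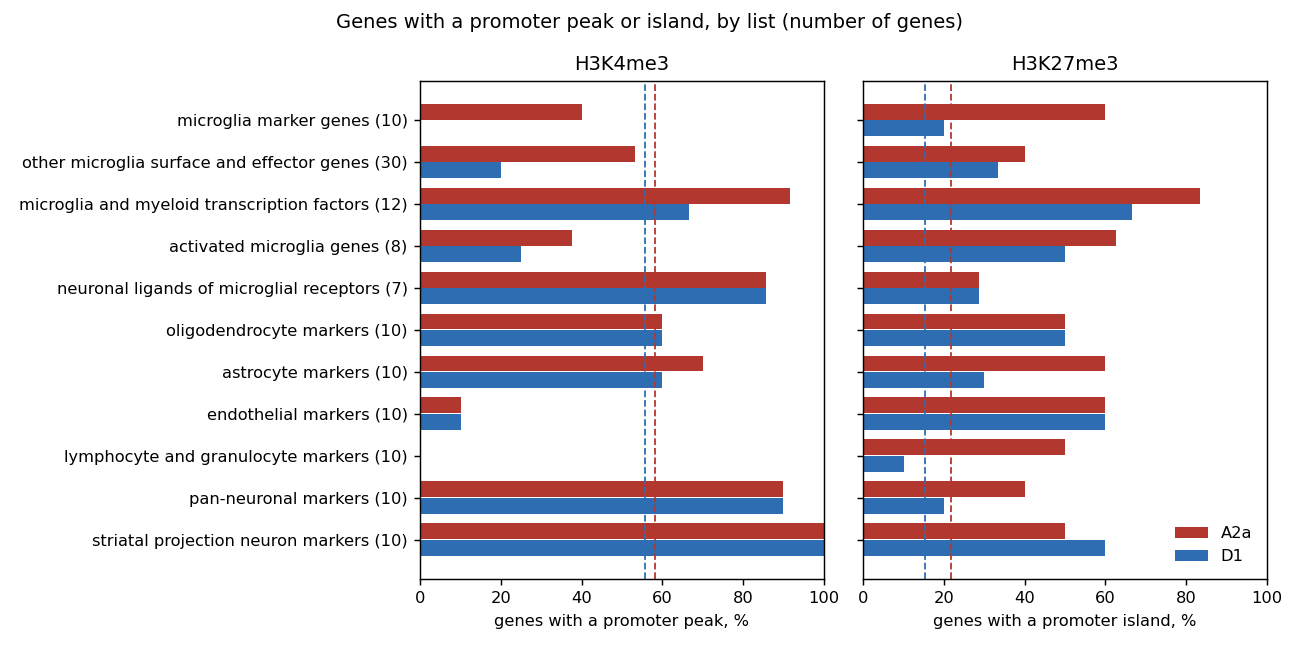
Share of the genes of each list with an H3K4me3 peak (left) or an H3K27me3 island (right) in the promoter window, in A2a (red) and D1 (blue), with the number of genes in brackets and the share of all protein-coding genes as dashed lines. For H3K4me3, the 10 marker genes (4 against 0) and the 30 other microglial genes (16 against 6) have the widest gaps between A2a and D1. Oligodendrocyte markers stand at 6 and 6 and astrocyte markers at 7 and 6.

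Markers of other cells that striatal nuclei could include were counted in the same way, and their part in the microglial peaks was not tested. Of all protein-coding genes, 2.59% had a promoter H3K4me3 peak in A2a alone and 0.164% in D1 alone. For H3K4me3, 2 of 10 oligodendrocyte markers had a promoter peak in A2a alone (*Mog* and *Mobp*, with −log10 q of 12.3 and 5.86) and 2 in D1 alone (*Mag* and *Ermn*, with 3.87 and 5.09). Of 10 astrocyte markers, *S100b* (10.2) had a peak in A2a alone and none in D1 alone. No endothelial marker had a peak in 1 list alone, and no lymphocyte or granulocyte marker had a peak in the promoter window in either list.

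Counts taken at every annotated start of a gene differed from those in the promoter window. Of the 10 microglia marker genes, 6 then had an A2a peak and 1 a D1 peak, with 5 in A2a alone. The shares of protein-coding genes counted in this way were 62.0% in A2a and 59.4% in D1. The 30 other microglial genes stood at 17 and 7, with 10 in A2a alone. Astrocyte markers stood at 9 in A2a and 6 in D1, with 3 in A2a alone, since *Aldh1l1* (−log10 q of 17.8) and *Aqp4* (6.29) joined *S100b*. Oligodendrocyte markers stood at 8 and 6, with 3 in A2a alone and 1 in D1 alone. *Sox10* (5.74) was added in A2a, and *Mag* had an A2a peak of 7.88 at another start. *Cd4* was the only lymphocyte marker with a peak, in both lists (147 and 51.3). Peaks of the A2a list alone were thus also found at markers of astrocytes and oligodendrocytes. The share of all protein-coding genes with a peak in A2a alone was not computed at every annotated start. The A2a-only counts in this paragraph therefore have no share to be read against.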

How the data were processed

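The 4 deposited lists of A2a and D1 CnR were analysed, each pooling 2 replicates. Alignment to mm10 was made by the authors with Bowtie2 (version 2.1.0), followed by SAMtools (version 0.1.19) and Picard. For H3K4me3, the authors ran MACS2 (q-value below 0.01) and deposited a fold enrichment, which is a ratio to the local background, and a −log10 q for each peak. For H3K27me3, the authors ran SICER (window 200 bp, gap 600 bp, false discovery rate 0.01) and deposited the raw read count of each island. The control of the island calls is not given in the sources used here. Library depth is not known from the lists. Poisson intervals (95%) cover counting error only.

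Island ends were read as inclusive, and coordinates are counted from 1. Percentiles rank −log10 q or reads within a list. The genes named are the 10 markers, the 7 ligands, the strongest peak and island of each other list, microglial genes marked in 1 cell type only, and genes whose promoter shares a peak or island with a marker. Some genes that this rule takes are not reported here. *Mog*, *Mobp*, *Mag*, *Ermn*, *S100b*, *Sox10*, *Aldh1l1*, *Aqp4*, *Cd4*, *Fcgr3*, *Rbfox3*, *Drd1*, *Drd2*, *Penk*, *Pdyn*, *Prrc2a*, *Slc39a13* and *Med12l* fall outside this rule and were named after their values were seen. The members and gene lists were chosen with earlier results of these data known. No test was made, since the lists hold no replicates. The other 20 samples were not analysed here. The overlap procedure was tested on simulated data. Computations used Python (version 3.11.15), numpy (2.4.6), pandas (2.3.3), scipy (1.17.1), pysam (0.24.0) and matplotlib (3.10.9).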

Additional observations from a re-analysis of the deposited data

How the results depend on the processing

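No paired analysis was possible because each list pools its 2 replicates and holds no value per replicate, and for the same reason no replicate could be left out. The 8 counts of marked genes were recomputed under alternatives that could move them, and of 44 such counts 37 stayed within 1.5 times the reported one. Other backgrounds, and the D1 lists at their own length, cannot move a count and are not among the 44. With the same number of strongest peaks in both lists (20080), the genes with an A2a H3K4me3 peak fell from 4 to 2 at the promoter and from 6 to 3 over the gene (*Cx3cr1*, *P2ry12* and *Tmem119*). Counting every annotated start of a gene, the D1 promoter count of H3K4me3 was 1 in place of 0 (*P2ry12*, at its short transcripts). The D1 promoter count of H3K27me3, reported as 2, was 1 with a window of 1 kb to each side, 4 with 5 kb to each side (*Csf1r* and *C1qa* were added) and 1 with islands of at least 2 kb. With RefSeq spans, chosen after seeing the data, the D1 gene count of H3K4me3 was 1 in place of 2, since the RefSeq *Cx3cr1* does not run over its neighbours. The A2a promoter count of H3K4me3 was 6 with RefSeq starts or any annotated start (*Cx3cr1* and *Csf1r* were added). It was 3 with an overlap of at least 200 bp or a −log10 q of at least 5. With any annotated start, the share of protein-coding genes with a peak was 62.0% in A2a and 59.4% in D1. The low CpG background and the further starts of the other gene lists were also chosen after seeing the data. A gene without a peak is one where none was called at this depth.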

Other observations

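Endothelial markers and markers of lymphocytes and granulocytes had more promoter islands of H3K27me3 than promoter peaks of H3K4me3. Oligodendrocyte and astrocyte markers had both. Of all protein-coding genes, 58.2% had a promoter peak in A2a and 55.7% in D1, and 21.7% and 15.3% had an island. For peaks, oligodendrocyte markers (60% in both lists) and astrocyte markers (70% and 60%) were near these shares. For D1 islands, lymphocyte and granulocyte markers (10%) were near the share. Of 10 endothelial markers, 6 had a promoter island in both A2a and D1, and *Kdr*, the VEGF receptor, had the only H3K4me3 promoter peak of the list (−log10 q of 15.5 in A2a and 6.86 in D1). *Tek* had the most island reads in A2a (3486) and *Kdr* in D1 (1550). Of 10 lymphocyte and granulocyte markers, 5 had an island in A2a and 1 in D1, and the most reads in both lists were at *S100a9* (1575 and 128). Their median CpG ratio, 0.173, was below that of the microglia marker genes.

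Oligodendrocyte markers had a promoter peak at 6 genes in A2a and 6 in D1, against islands at 5 and 5, and astrocyte markers had peaks at 7 and 6, against islands at 6 and 3. Among oligodendrocyte markers, *Mbp* had the strongest H3K4me3 peak (171 and 104) and *Olig2*, a lineage transcription factor, the most island reads (5957 and 2648). Among astrocyte markers, *Slc4a4* had the strongest peak (104 and 59.6) and *Gja1*, a gap junction protein, the most island reads (3374 and 1622). Among the neuronal lists, the most island reads were at *Elavl4* (2390 in A2a and 1444 in D1), at *Tac1* in A2a (9144) and at *Adora2a* in D1 (4153).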
